A study of Homo sapiens with 6 samples.

Results

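The genes that move zinc across membranes and bind it inside the cell were followed in H1, an established line of human embryonic stem cells, on 2 laminin coatings. They number 32 of the 60499 genes in the deposited tables: 10 exporters of the SLC30 family, 14 importers of the SLC39 family, 7 metallothioneins and the zinc-sensing transcription factor MTF1. They were taken from these families with earlier results of these data known, and matched from symbol to Ensembl gene ID. The metallothionein genes MT1A, MT1B, MT3 and MT4 are not among them and are described apart. One group grew on laminin-521 alone (LN-521) and the other on laminin-521 together with laminin-221 (LN-521+LN-221, the mixed coating). Both groups had laminin-521, the same cell line and nutristem medium, renewed each day over 4 days, with 3 wells per coating and 1 library of total RNA per well. The study asks what adding laminin-221, a laminin of heart and muscle, does to cells kept as stem cells. All wells came from 1 cell line, and nothing in the labels says that the wells were separate cultures before plating, so the p-values measure the spread between these wells.

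Zinc is a structural or catalytic part of many proteins, and its free level in the cytosol is kept very low. SLC30 proteins carry zinc out of the cytosol, to the outside or into organelles, and SLC39 proteins carry it into the cytosol. Metallothioneins are small cysteine-rich proteins that bind zinc and copper. MTF1 senses free zinc and binds metal response elements in promoters, and the metallothionein genes and SLC30A1 are its best known targets.

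The metallothionein genes lie together on chromosome 16, and their coding sequences are shown first because their likeness bears on how reads can be assigned. The sequences are from GENCODE release 29 transcripts, 5′ to 3′, with the cysteine codons TGC and TGT in capitals. MT1X was the most abundant of the family, MT1H had the largest decrease among the abundant members, MT1F the smallest decrease, and MT2A is the member of the other major isoform.
MT1X coding sequence: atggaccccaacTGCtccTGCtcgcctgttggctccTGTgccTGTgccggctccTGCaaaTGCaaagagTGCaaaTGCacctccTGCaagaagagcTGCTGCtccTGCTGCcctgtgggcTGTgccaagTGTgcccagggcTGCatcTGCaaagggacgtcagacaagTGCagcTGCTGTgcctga
MT1H coding sequence: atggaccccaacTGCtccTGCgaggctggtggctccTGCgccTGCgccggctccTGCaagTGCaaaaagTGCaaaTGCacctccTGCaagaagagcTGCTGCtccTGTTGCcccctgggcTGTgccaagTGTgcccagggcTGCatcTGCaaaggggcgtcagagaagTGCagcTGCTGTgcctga
MT1F coding sequence: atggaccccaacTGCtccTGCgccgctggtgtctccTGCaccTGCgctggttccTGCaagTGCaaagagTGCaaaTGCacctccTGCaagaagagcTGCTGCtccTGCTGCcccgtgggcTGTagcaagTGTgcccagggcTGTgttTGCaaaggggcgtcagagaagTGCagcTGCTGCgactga
MT2A coding sequence: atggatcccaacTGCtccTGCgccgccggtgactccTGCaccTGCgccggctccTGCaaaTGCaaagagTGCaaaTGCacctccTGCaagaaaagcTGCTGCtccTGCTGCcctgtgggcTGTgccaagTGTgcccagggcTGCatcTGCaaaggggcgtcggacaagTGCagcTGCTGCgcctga
Each of these runs has 186 bases, and 20 of its 61 codons before the stop, or 32.8%, encode cysteine. MT1G is longer, at 189 bases, with the same 20 cysteine codons. Over the 21 pairs of the 7 coding sequences, identity ran from 88.7% (MT1F with MT1X) to 93.7% (MT1G with MT2A), with a median of 91.5%. Reads that match several genes can be divided between them, which leaves counts that are not whole. As deposited, with no tolerance, MT1G and MT1X had non-whole counts in 4 libraries each and MT1E in 1, while MT1F, MT1H, MT1M and MT2A had whole counts in all 6. Which genes shared those reads was not tested, and a whole count does not show that no read was divided. The levels of single metallothioneins are uncertain to that extent, and the summed level of the family is given beside them.

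Promoters are shown next because MTF1 binds there. In the 250 bases before each RefSeq start (GRCh38.p14), the metal response element core was searched as TGCACNC and TGCGCNC on both strands, where N is any base. Matches are in capitals below, 5′ to 3′. MT1H has the most matches of the searched members, MT1X stands for the most abundant gene, and MT1B is a neighbour in the cluster that was at 0. The MT1X run stops where the first MT1X exon of GENCODE 29 begins.
MT1H promoter, chr16:56669564-56669813, plus strand: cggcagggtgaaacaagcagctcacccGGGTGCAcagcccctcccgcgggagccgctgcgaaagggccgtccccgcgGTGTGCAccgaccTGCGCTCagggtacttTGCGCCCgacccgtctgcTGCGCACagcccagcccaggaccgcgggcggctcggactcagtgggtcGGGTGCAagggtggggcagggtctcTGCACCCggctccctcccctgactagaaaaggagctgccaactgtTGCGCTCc
MT1X promoter, chr16:56682220-56682423, plus strand: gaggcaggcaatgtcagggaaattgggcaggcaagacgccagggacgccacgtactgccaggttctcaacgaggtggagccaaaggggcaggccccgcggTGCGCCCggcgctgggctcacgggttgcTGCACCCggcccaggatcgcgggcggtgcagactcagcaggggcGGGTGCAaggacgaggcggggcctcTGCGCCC
MT1B promoter, chr16:56651636-56651885, plus strand: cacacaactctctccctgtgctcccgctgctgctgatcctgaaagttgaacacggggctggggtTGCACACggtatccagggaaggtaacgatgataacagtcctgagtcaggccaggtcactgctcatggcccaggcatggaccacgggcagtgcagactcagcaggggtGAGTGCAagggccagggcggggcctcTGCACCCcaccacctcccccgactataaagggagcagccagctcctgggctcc
The MT1H window holds 8 matches and the MT1X window 4. MT2A, whose window lies inside a first exon of GENCODE 29 and is not printed, has 7. The MT1B window holds 3, and MT1B had no count in any library. Of 27305 promoter windows of the same length, 24.7% hold 1 or more matches, 0.366% hold 4 or more, 0.033% hold 7 or more and 0.0183% hold 8 or more. Promoter sequences were at hand for 25 of the 32 genes and not for MT1E, MT1F, MT1G, MT1M, SLC30A8, SLC39A4 and SLC39A14. At least 1 match was found in 3 of 3 metallothionein windows, 5 of 9 exporter windows and 2 of 12 importer windows, and none in that of MTF1. SLC30A1 had 1 match, SLC30A2 had 3 and SLC30A3 had 2. A match is a description of the letters and not a binding site.

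Of the 32 genes, 26 had enough counts to be tested and 7 differed between the coatings, each of them lower on the mixed coating (edgeR quasi-likelihood test, Benjamini-Hochberg adjustment over the 17608 genes tested, adjusted p under 0.05). These 7 were the 7 metallothioneins among the 32 genes. Of them MT1M passed the count filter only through the LN-521 wells, where it was higher, so that its call carries less weight, and the other 6 had at least 10 counts in each library. Across all genes tested, 2.53% passed the same threshold, with 1.14% lower and 1.40% higher. None of the 7 tested exporters, the 11 tested importers or MTF1 passed. The remaining 6 genes, SLC30A2, SLC30A4, SLC30A8, SLC39A2, SLC39A5 and SLC39A12, had 0 to 15 counts per library and were not tested. In bulk RNA, fewer cells of a type and less RNA per cell cannot be told apart.

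Total counts per library ran from 22669589 to 26836686 on LN-521 and from 20606450 to 24006746 on the mixed coating, and edgeR's common biological coefficient of variation came to 7.03%. The libraries carried the transcripts of stem cells: all 8 pluripotency markers were tested, with summed levels of 2690 to 2990 TPM on LN-521 and 2610 to 2790 TPM on the mixed coating. Of these markers POU5F1 (-0.36), NANOG (-0.73) and TDGF1 (-0.65) were lower on the mixed coating and LIN28A (0.23) was higher, each given as a log2 change with an edgeR adjusted p under 0.05. POU5F1, NANOG and TDGF1 had non-whole counts in 6, 6 and 5 libraries, so their levels are uncertain to that extent. With limma on log2(TPM + 1), 0 of the 8 passed, where 33 of 14428 genes did. Markers of other cell types were low or did not pass. The 7 endoderm markers summed to 1.25 to 2.32 TPM on LN-521 and 0.72 to 1.97 TPM on the mixed coating, with TTR at 0 in all libraries. The 1 endoderm marker tested, AFP, was not called, at -0.98 ± 0.41 (SE; edgeR adjusted p = 0.271), with an unadjusted p of 0.0291 and overlapping wells (0.526 to 1.12 CPM and 0.296 to 0.674 CPM). Like MT1M below, AFP passed the count filter through the LN-521 wells, since 1 well of the mixed coating reached 10 counts. The 4 mesoderm markers summed to 0.26 to 0.43 TPM and 0.3 to 0.88 TPM, and none had enough counts to be tested. The 3 neural markers summed to 59.2 to 65.8 TPM and 64.4 to 65.0 TPM, the 4 trophoblast markers to 11.5 to 14.0 TPM and 11.2 to 12.5 TPM, and the 4 fibroblast markers, mostly COL1A1 and COL1A2, to 76.8 to 89.8 TPM and 81.6 to 96.8 TPM. Of these 11 markers 5 were tested and 0 passed by edgeR, while 1 had an unadjusted p under 0.05 and passed with DESeq2, COL1A1 (log2 change -0.20). Over all genes tested 2.53% passed by edgeR and 14.5% had an unadjusted p under 0.05, and DESeq2 called 507 of 14468. The part of the marker differences in the metallothionein result was not tested. The most unlike wells of a coating were LN-521 replicates 1 and 2, with a chi-square per degree of freedom of 14.12 against 2.76 to 6.97 for the other pairs. Without either of them in turn the 7 metallothioneins still passed.

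MT1X (ENSG00000187193), the most abundant of the metallothioneins, had 71.0, 75.6 and 77.5 CPM in the LN-521 wells and 48.0, 43.9 and 43.9 CPM in those of the mixed coating. The coatings did not overlap, and the wells of a coating lay close together. The mean of MT1X was 74.7 ± 3.32 CPM and then 45.3 ± 2.38 CPM on the mixed coating (SD, n = 3 each), a log2 change of -0.72 ± 0.07 (SE; edgeR adjusted p = 4.43e-06). MT1X also overlaps AC026461.1 on the same strand in GENCODE 29, and reads of the shared exons cannot be told apart. MT1G (ENSG00000125144) had 36.9, 44.3 and 47.0 CPM on LN-521 and 20.7, 20.1 and 19.7 CPM on the mixed coating. Its 3 wells on the mixed coating were almost equal, with 20.2 ± 0.469 CPM against 42.7 ± 5.26 CPM on LN-521 (SD, n = 3 each), and the log2 change was -1.08 ± 0.09 (SE; edgeR adjusted p = 3.04e-06). MT1E (ENSG00000169715) had 34.8, 33.8 and 42.9 CPM on LN-521 and 19.8, 20.2 and 17.9 CPM on the mixed coating. Every LN-521 well was above every well of the mixed coating, and MT1E fell by 0.94 in log2 terms (SE 0.09; edgeR adjusted p = 1.44e-05).

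MT1H (ENSG00000205358) had 24.6, 27.8 and 29.5 CPM on LN-521 and 12.2, 10.1 and 10.5 CPM on the mixed coating. The mixed coating left 39.9% of the LN-521 level, and the log2 change of -1.33 ± 0.10 (SE; edgeR adjusted p = 1.11e-06) was the largest among the 6 metallothioneins with at least 10 counts in each library. MT2A (ENSG00000125148), the MT2 isoform and in many tissues the major one, had 16.0, 18.9 and 23.0 CPM on LN-521 and 10.2, 8.79 and 9.25 CPM on the mixed coating. The LN-521 wells were spread more widely than those of the mixed coating, without overlap, and the log2 change was -1.04 ± 0.12 (SE; edgeR adjusted p = 7.35e-05). MT1F (ENSG00000198417) had 18.5, 18.6 and 20.4 CPM on LN-521 and 12.6, 11.9 and 13.1 CPM on the mixed coating. It had the smallest decrease, 1.53-fold, a log2 change of -0.62 ± 0.09 (SE; edgeR adjusted p = 0.000695), and again the coatings did not overlap. MT1M (ENSG00000205364) was scarce, with 24, 28 and 37 counts on LN-521 and 6, 14 and 7 counts on the mixed coating. It passed the count filter through the LN-521 wells, since 1 well of the mixed coating reached 10 counts. Its log2 fold change was -1.55 ± 0.37 (SE; edgeR adjusted p = 0.0288), and its 95% interval of -2.32 to -0.78 spans the values of MT1H, MT1G, MT2A and MT1E. The MT1M call was lost without LN-521 replicate 3, LN-521+LN-221 replicate 1 or LN-521+LN-221 replicate 3. In each of the 7 genes the highest value of the 6 libraries was that of LN-521 replicate 3. Over all genes tested, the coatings did not overlap in 19.9%, and in 9.68% with the mixed coating lower.

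**Figure D1:**
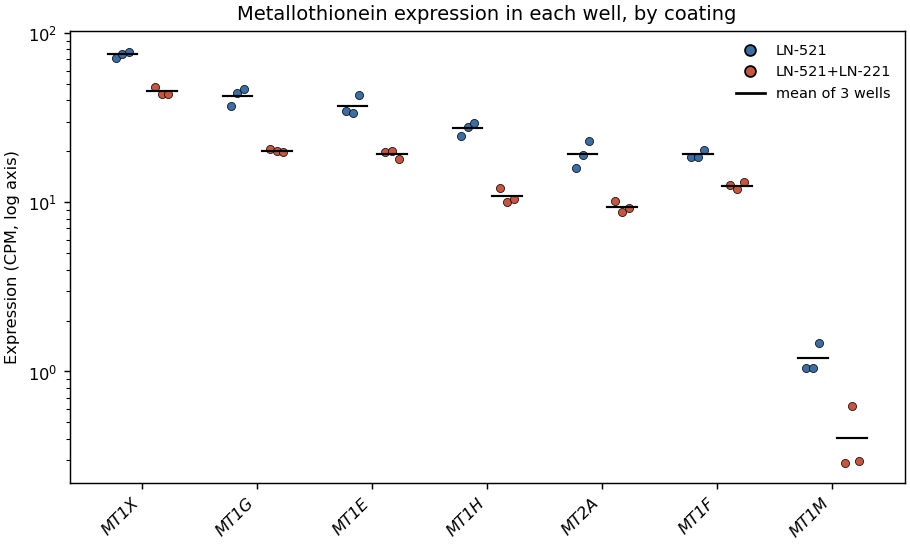
Expression of the 7 metallothioneins in CPM (log axis), ordered by mean TPM, with a point for each of the 3 wells per coating and a bar at their mean. In each gene the LN-521+LN-221 wells sit below all LN-521 wells, from 43.9 to 48.0 CPM against 71.0 to 77.5 CPM for MT1X and from 0.289 to 0.628 CPM against 1.05 to 1.48 CPM for MT1M.

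Summed over the 7 genes, metallothionein transcripts reached 203, 220 and 242 CPM on LN-521 and 124, 116 and 115 CPM on the mixed coating, a log2 difference of -0.909 between the means. This sum does not depend on how reads were divided within the family, and it was -0.906 with the counts of 11 further metallothionein genes and pseudogenes added. Those 11 genes made up at most 0.694% of the family's counts. None of them was tested, and 6 (MT1B, MT4, MT1DP, MT1CP, MT1P1 and MT1P3) had no count in any library, which allows up to 0.113 to 0.144 CPM per library at a floor of 3 counts. The highest of the others had 11 counts in a library. MT3, the metallothionein of brain, had 1 to 11 counts and MT1A 0 to 5. The floor covers counting error only.

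Per transcript length, the metallothioneins kept most of their order. MT1X was first and MT1G second of the 7 in TPM in all 6 libraries, and MT1M was last. MT1E and MT1H followed MT1G on both coatings and changed places in LN-521 replicate 2. The exception lay lower in the order. MT2A, at 35.9, 36.73 and 46.81 TPM on LN-521, was number 5 of the 7 in each well and above MT1F, at 33.4, 29.68 and 34.92 TPM. On LN-521+LN-221 MT2A, at 21.43, 17.4 and 17.69 TPM, was number 6 and below MT1F, at 24.31, 23.73 and 22.5 TPM. The values of this pair did not overlap on either coating.

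The shares of single genes in the family are given as a description. As a share of the TPM of the 7 genes, MT1X took 34.8%, 34.2% and 31.3% on LN-521 and 39.5%, 38.6% and 38.8% on the mixed coating. MT1H had shares of 14.3%, 15.3% and 14.6% on LN-521 and 12.0%, 10.4% and 10.7% on the mixed coating. The share of MT1F was 5.24% to 5.52% and then 6.86% to 7.40%, and that of MT1G, 22.3% to 25.3% and then 21.7% to 22.4%, overlapped between the coatings. The log2 ratio of MT1H to MT1F counts was 0.41, 0.58 and 0.53 on LN-521 and -0.04, -0.24 and -0.32 on the mixed coating. These are the most and the least changed of the 6 abundant members, a pair chosen for its difference. The wells did not overlap, and the means were 0.51 ± 0.09 and -0.20 ± 0.14 (SD, n = 3 each), a difference of -0.71. The 8 gene pairs compared were chosen after the counts were seen, and an exact two-sided permutation test of 3 against 3 wells cannot go below a p of 0.1, so the ratios are given without a test. Against MT1X, the ratios of MT1H (a difference of -0.60), MT1G (-0.35) and MT2A (-0.30) did not overlap between the coatings either. Those of MT1E (-0.21) and MT1F (0.11) to MT1X did overlap.

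In GENCODE 29 (GRCh38) the 7 genes span 76.0 kb of chromosome 16, from position 56608199 to 56684196. MT2A lies at the low end (chr16:56608199-56609497) and MT1X at the high end (chr16:56682424-56684196), and both are on the plus strand. MT1G (chr16:56666731-56668065, minus strand) and MT1H (chr16:56669814-56671129, plus strand) are adjacent and point away from each other. From MT2A to MT1X along the chromosome, the log2 changes of the 6 genes with at least 10 counts in each library were -1.04 (MT2A), -0.94 (MT1E), -0.62 (MT1F), -1.08 (MT1G), -1.33 (MT1H) and -0.72 (MT1X). The genes reported here from around the cluster did not pass the threshold, with 0 of 5 tested genes called by edgeR, 0 at an unadjusted p under 0.05 and 0 of 5 by DESeq2. Over all genes tested 2.53% were called and 14.5% had an unadjusted p under 0.05, and counts of 0 in 5 genes are near those shares. HERPUD1 and BBS2, the 2 most changed of these 5, had log2 changes of -0.06 ± 0.13 (SE; edgeR adjusted p = 0.883) and 0.06 ± 0.07 (SE; edgeR adjusted p = 0.774). The sign for HERPUD1 was not stable, at 0.003 without LN-521 replicate 2. NUP93, the nearest of these 5 on the MT1X side, starts at position 56730105, beyond the MT1X end at 56684196. This is 121.9 kb from the start of MT2A, at the far end of the cluster. NUP93 was at -0.03 ± 0.06 (SE; edgeR adjusted p = 0.85).

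**Figure D2:**
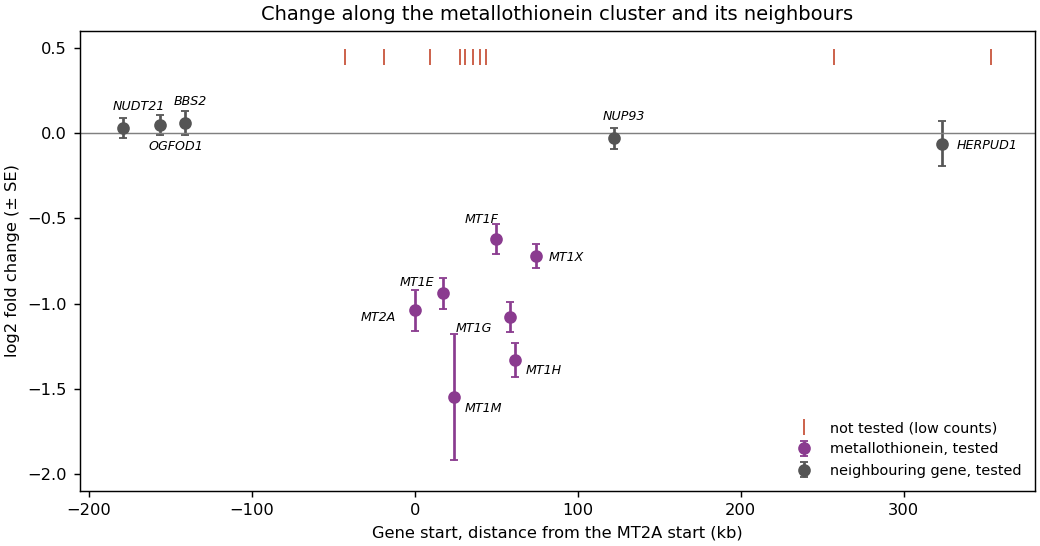
Log2 fold change between the coatings, negative where LN-521+LN-221 is lower (with SE), against the distance of each gene's start from that of MT2A in kb. The 7 metallothioneins lie between -1.55 and -0.62, the 5 tested neighbours shown between -0.06 and 0.06, and ticks mark genes that were not tested.

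MTF1 (ENSG00000188786), the zinc sensor, had 9.93, 9.85 and 9.67 CPM on LN-521 and 10.7, 11.2 and 9.63 CPM on the mixed coating. The wells overlapped, and the log2 change was 0.10 ± 0.10 (SE; 95% interval -0.12 to 0.31; edgeR adjusted p = 0.742). MTF1 did not pass with DESeq2 either. This is the level of the transcript. The amount of zinc bound to the protein was not measured.

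Among the exporters SLC30A1 (ENSG00000170385; chr1:211571568-211578742), the zinc exporter of the plasma membrane, came nearest to the threshold. It had 111, 89.7 and 96.1 CPM on LN-521 and 84.8, 85.0 and 80.1 CPM on the mixed coating. Every well of the mixed coating was below every LN-521 well, and LN-521 replicate 1 was the highest. The log2 fold change was -0.25 ± 0.07 (SE; 95% interval -0.40 to -0.10; edgeR adjusted p = 0.0843), which did not pass. It passed with DESeq2 (adjusted p = 0.0416), with the replicate block in edgeR (adjusted p = 0.0221), with no count filter in edgeR (adjusted p = 0.00782), with a correction for GC content in edgeR (adjusted p = 1.79e-04) or transcript length (adjusted p = 0.0329), and without LN-521 replicate 2 in edgeR (-0.309, adjusted p = 0.0055). It did not pass without any other library in turn (edgeR adjusted p = 0.101 to 0.318), and without LN-521 replicate 1 the log2 change was -0.158. With limma on log2(TPM + 1) and log2(TPM + 0.1) its adjusted p was 0.821 and 0.833. Against MT1F, the least changed metallothionein, the log2 ratio of MT1F to SLC30A1 counts differed by -0.37 between the coatings, without overlap, in a pair chosen after the counts were seen and given without a test.

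By edgeR 0 of the 7 tested exporters passed (against 2.53% of all genes tested), and 3 had an unadjusted p under 0.05 (against 14.5%). DESeq2 called 1 of the 6 it tested, SLC30A1, and 507 of 14468 over all genes. The median log2 fold change was that of SLC30A9, -0.004, beside -0.001 over all genes tested. The values ran from -0.27 to 0.30, with 4 below 0 and 3 above. SLC30A9 (ENSG00000014824), a mitochondrial zinc exporter, was the most abundant exporter per length, at 61.61, 40.28 and 47.29 TPM on LN-521 and 57.64, 53.1 and 45.8 TPM on the mixed coating. Its wells overlapped, and its edgeR adjusted p was 0.987. SLC30A5 (ENSG00000145740), which loads zinc into the secretory pathway, was second, at 24.93, 15.28 and 20.12 TPM on LN-521 and 23.39, 23.49 and 20.91 TPM on the mixed coating. Its log2 change was 0.05 ± 0.06 (SE; edgeR adjusted p = 0.794). SLC30A1 followed in the third place, at 18.16, 12.36 and 13.99 TPM and then 13.54, 12.96 and 11.75 TPM, and the 3 genes held these places in every library. In TPM the SLC30A1 wells of the coatings overlapped, unlike in CPM. TPM also depend on the share of 7SL RNA, which was highest in LN-521 replicate 2. SLC30A3, the exporter of synaptic vesicles, had the largest change in absolute value, 0.30 ± 0.13 (SE; 95% interval 0.03 to 0.57; edgeR adjusted p = 0.293). It had 5.18, 6.13 and 6.58 CPM on LN-521 and 7.8, 7.22 and 7.05 CPM on the mixed coating. SLC30A7, an exporter of the Golgi, was at 0.17 ± 0.07 (SE; edgeR adjusted p = 0.290). The CPM wells of SLC30A3 and SLC30A7 did not overlap, 2 of 7 tested exporters, where 10.2% of all genes were higher without overlap. SLC30A6, the partner of SLC30A5, was at -0.08 ± 0.07. SLC30A10, which exports manganese, was at -0.27 ± 0.39 with 9 to 29 counts per library.

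Of the 11 tested importers, 0 passed by edgeR, against 2.53% of all genes tested, 0 had an unadjusted p under 0.05, against 14.5%, and 0 of 11 passed with DESeq2. The log2 fold changes ran from -0.20 to 0.09 with a median of -0.07, and 10 of 11 were below 0, as were 8859 of the 17608 genes tested. The wells of 1 importer, SLC39A3 (-0.12 ± 0.10), did not overlap, with the mixed coating lower, as in 9.68% of all genes. Their direction was not stable, since 6 of the 11 changed sign in at least 1 alternative processing. SLC39A10 (ENSG00000196950), a zinc importer of the plasma membrane, was the most abundant, at 87.72, 66.7 and 83.47 TPM on LN-521 and 77.24, 72.23 and 69.16 TPM on the mixed coating. The wells overlapped, and the log2 change was -0.10 ± 0.06 (SE; edgeR adjusted p = 0.44). It passed after a GC correction, at -0.139 (edgeR adjusted p = 0.0462). SLC39A1 (ENSG00000143570), another importer of the plasma membrane, was second, at 62.65, 63.33 and 61.33 TPM on LN-521 and 64.34, 61.31 and 61.38 TPM on the mixed coating. These 6 values differed by little and overlapped, with a log2 change of -0.05 ± 0.06 (SE; edgeR adjusted p = 0.805). SLC39A7 (ENSG00000112473), which releases zinc from the endoplasmic reticulum, took the third place, at 37.92, 37.82 and 37.13 TPM on LN-521 and 39.42, 38.24 and 36.68 TPM on the mixed coating. It overlapped too, at -0.04 ± 0.06 (SE; edgeR adjusted p = 0.828). SLC39A14, which also carries iron and manganese, was next, at 18.09 to 20.6 TPM, and these 4 genes held their places in every library. SLC39A4, the intestinal importer, and SLC39A8 had the largest changes, each with a log2 change of -0.20, with SEs of 0.19 and 0.13 (edgeR adjusted p = 0.698 and 0.52), and their wells overlapped. SLC39A4 was above 0 with limma on log2(TPM + 1), at 0.073. SLC39A6, a relative of SLC39A10, had the highest value, 0.09 ± 0.06. SLC39A9, SLC39A11 and SLC39A13 lay between -0.10 and -0.02. Exons of SLC39A1 overlap those of AL358472.7 on the same strand and CREB3L4 on the other, and exons of SLC39A7 overlap RXRB on the other strand. SLC39A3 (AC006538.2) and SLC39A8 (AC098487.1) also share exon positions with other transcripts, as do SLC39A9 (ERH), SLC39A4 (AC233992.3), SLC30A3 (DNAJC5G) and SLC30A5 (AC010273.1). Whether reads were counted by strand is not stated, so these levels are uncertain to that extent.

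**Figure D3:**
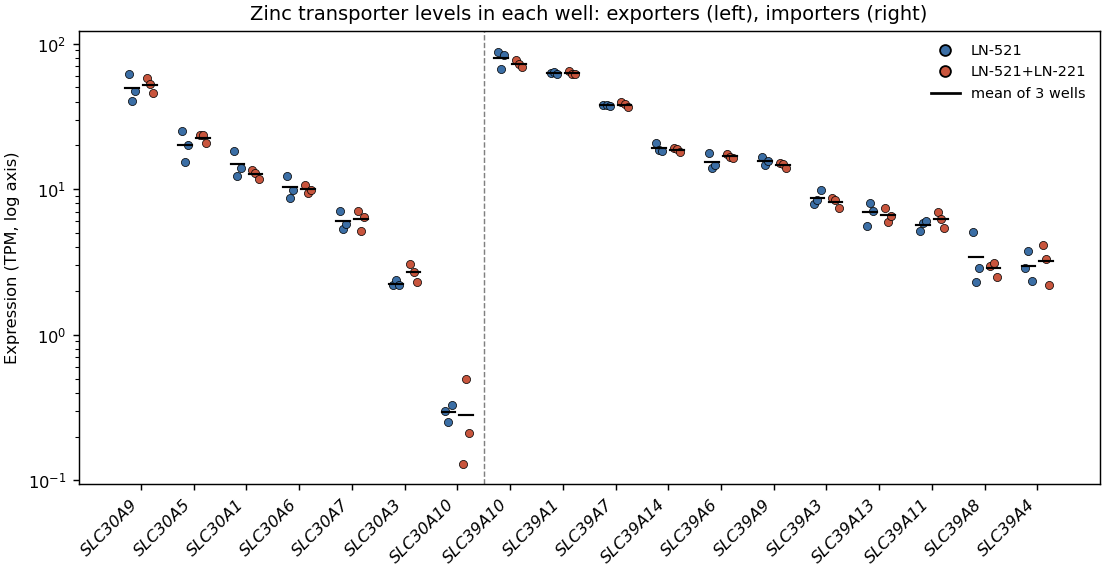
TPM (log axis) of the tested exporters, left of the dashed line, and importers, right of it, ordered by mean level within each family, with a point per well and a bar at the mean of 3 wells. SLC30A9 leads the exporters and SLC39A10 the importers in every library, and in both genes the wells of the coatings overlap.

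Set side by side, the 6 metallothioneins with at least 10 counts in each library had log2 fold changes of -1.33 (MT1H) to -0.62 (MT1F). Of the 18 transporters tested, 17 lay between -0.25 (SLC30A1) and 0.30 (SLC30A3). The other, SLC30A10, was at -0.27 but rests on few counts: it was at -0.009 without LN-521+LN-221 replicate 1 and at -0.93, inside the range of the metallothioneins, without LN-521+LN-221 replicate 2. None of the 18 passed by edgeR, a count near the 2.53% of all genes tested that did. DESeq2 called 1 of 17 transporters, and 507 of 14468 over all genes. Their median absolute log2 fold change was 0.10, beside 0.11 over all genes tested. In TPM, the exporters summed to 84.7 to 127 on LN-521 and 97.6 to 116 on the mixed coating, and the importers to 244 to 270 and 240 to 264. Both ranges overlapped between the coatings. The metallothioneins summed to 605, 567 and 659 TPM on LN-521 and 355, 321 and 304 TPM on the mixed coating. On LN-521 the 7 metallothioneins thus had more TPM than the 24 transporters in every well (329 to 397 TPM), and on the mixed coating less (338 to 379 TPM). Sums in TPM follow the genes with the highest levels, and they depend on the share of 7SL RNA in each library.

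**Figure D4:**
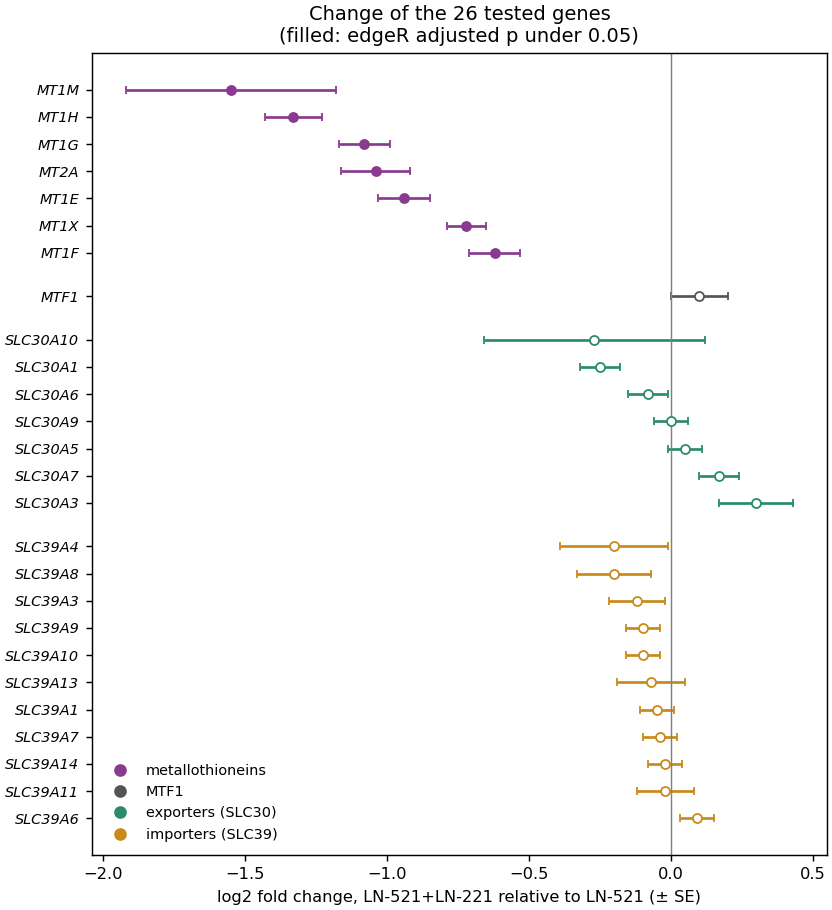
Log2 fold change with SE of the 26 tested genes, by class, with filled points for an edgeR adjusted p under 0.05. The 7 filled points are the metallothioneins, and the 18 transporters and MTF1 lie between -0.27 and 0.30.

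Lists of other metal handling genes had no gene past the threshold, where 2.53% of all genes tested passed, and counts of 0 in these lists are near that share. Of 7 genes for other zinc handling, all were tested, 0 passed by edgeR, 0 had an unadjusted p under 0.05 and DESeq2 called 0 of 5. The most changed were TMC8, at -0.37 ± 0.35 (SE; edgeR adjusted p = 0.699), and TMC6, at -0.17 ± 0.09 (SE; edgeR adjusted p = 0.384), whose products form a complex tied to zinc distribution. The TMC8 value rests on few counts, and it was -0.60 without LN-521+LN-221 replicate 1 and -0.06 without LN-521+LN-221 replicate 2. Metallothioneins also bind copper. Of 12 copper handling genes, 12 were tested and 0 passed by edgeR, with 0 at an unadjusted p under 0.05 and 0 of 11 by DESeq2, and the median was -0.06. SCO2 and COX17, which deliver copper to cytochrome c oxidase, were at -0.15 ± 0.14 and -0.12 ± 0.09 (SE; edgeR adjusted p = 0.698 and 0.633). Of 9 iron handling genes, 7 were tested, 0 passed by edgeR or DESeq2, and 2 had an unadjusted p under 0.05 (14.5% over all genes tested), SLC11A2, an iron importer at 0.15 ± 0.06 (SE), and ACO1. TFRC, the transferrin receptor, was at 0.17 ± 0.08 (SE; edgeR adjusted p = 0.361), and it passed without LN-521 replicate 1, at 0.295. ACO1, the iron regulatory protein, was at -0.15 ± 0.06 (SE; edgeR adjusted p = 0.247).

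**Figure D5:**
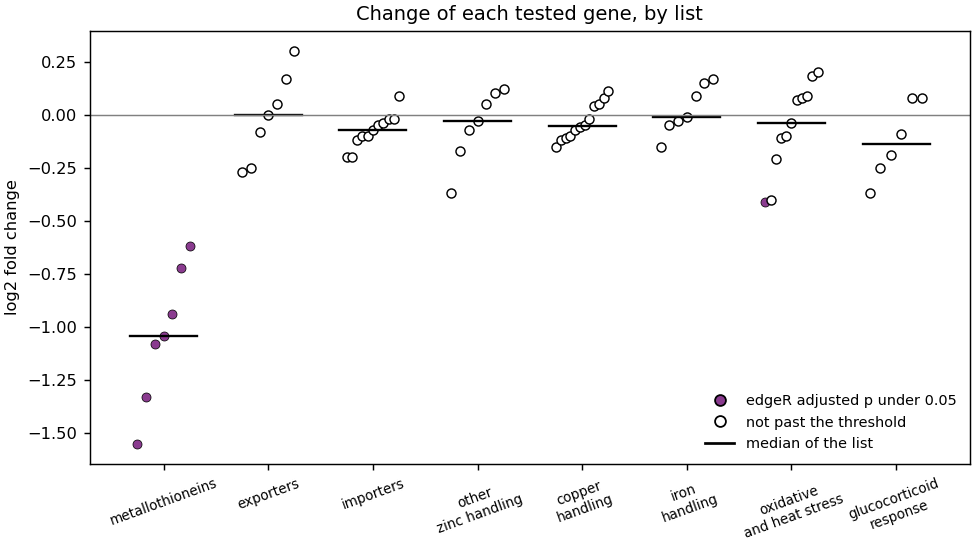
Log2 fold change of each tested gene in 8 lists, with filled points for an edgeR adjusted p under 0.05 and a bar at the median of the list. The metallothionein median, MT1M included, is -1.04, and the medians of the other 7 lists lie between -0.14 and 0; NQO1, at -0.41, is the only filled point outside the metallothioneins.

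The metallothionein calls were checked against the unit and the test. DESeq2 called 6 of the 6 it gave an adjusted p, with none for MT1M, and 507 of 14468 over all genes. With limma on log2(TPM + 1), 3 of the 7 passed (MT1H, MT1G and MT2A), and with log2(TPM + 0.1), 2 did (MT1H and MT1G), while the count over all genes fell to 33 and 16. The folds of the lost calls stayed near those of edgeR for MT1E (-0.973 and -0.986, against -0.945) and MT1X (-0.675 and -0.679, against -0.724; limma adjusted p = 0.0553 and 0.109), and for MT2A with log2(TPM + 0.1) (-1.071, against -1.038). MT1F was at -0.455 and -0.47, against -0.616, and the scarce MT1M at -0.703 and -1.404, against -1.55. None of the 7 changed sign in any setting that tested it.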

How the data were processed

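Total RNA of 6 wells of H1 cells, 3 per coating, was sequenced in pairs of 150 bp reads with a stranded kit, per the labels' protocols. Per the submitters' processing notes, cutadapt, STAR 2.5.2b and RSEM 1.2.31 were used with hg38. The annotation release and the use of strand in counting are not given in the sources used here. The authors deposited estimated counts per gene, of which 6.08% to 6.67% per library were not whole, and TPM values, which are scaled per transcript length and to the same total in each library. That total includes 7SL RNA, whose share differed between libraries.

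Estimated counts were rounded. Genes were kept by filterByExpr (minimum count 10), scaled by TMM and compared with edgeR 4.0.16 (limma 3.58.1, R 4.3.3; quasi-likelihood, robust, no replicate block), with Benjamini-Hochberg adjustment over 17608 genes and a threshold of 0.05. CPM are rounded counts over TMM-scaled library sizes. A negative log2 fold change means lower on LN-521+LN-221, and the SE is the absolute log2 fold change over the square root of F. Gene ratios are log2 of counts plus 0.5. The 32 genes, the lists of other genes and the markers were chosen with earlier results of these data known. Values in every library are given for those of the 32 genes past the threshold, the metallothioneins, MTF1, SLC30A1 and the 3 most abundant exporters and importers, and listed genes are named when past the threshold or among the 2 most changed; SLC30A3, SLC30A7, SLC30A6, SLC30A8, SLC30A10, SLC39A3, SLC39A6, SLC39A8, SLC39A14, NUP93, MT3, MT1A, AFP, COL1A1, COL1A2, SLC11A2, GCLC, HSPA1B and TXNRD1 were named after their values were seen. Of the genes listed beside the metallothionein cluster, 1 is not reported here. Symbols matched 93.1% of the IDs. No column outside the 6 samples was found, and the scripts were tested on simulated data. The alternatives were other scaling, filters, DESeq2 1.42.0, limma on log2 TPM, a replicate block, removal of abundant RNAs, leaving out each library, and, added after seeing the data, GC and length corrections.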

Additional observations from a re-analysis of the deposited data

How the results depend on the processing

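Over all genes, 446 calls became 718 without a filter (336 higher, 382 lower), 938 with the GC correction, 33 with log2(TPM + 1) and 16 with log2(TPM + 0.1), and 194 to 1179 when a library was left out. DESeq2 called 507. Leaving out LN-521+LN-221 replicate 3 gave the lowest count and leaving out LN-521 replicate 1 the highest. The 7 metallothionein calls became 3 and 2 in the TPM settings and 6 or 7 when a library was left out. MT1M was lost without LN-521 replicate 3, without LN-521+LN-221 replicate 1 and without LN-521+LN-221 replicate 3 (log2 fold changes of -1.364, -1.37 and -1.36). Exporter calls went from 0 to 1, SLC30A1 each time, without a filter, with DESeq2 and with the GC and length corrections, and ranged from 0 to 1 when a library was left out. Importer calls went from 0 to 1 with the GC correction and stayed at 0 in the 6 fits without a library. The metallothionein sum kept its direction, from -0.969 to -0.842 over the same fits.

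Replicate numbers recur in both coatings, but deviations of same-numbered wells correlated at 0.047, -0.022 and 0.009, so the numbers do not pair the wells, and not every well correlated best with its own number. A replicate block in edgeR gave 646 genes, with 7 metallothioneins, 0 importers and 1 exporter (SLC30A1, -0.242, edgeR adjusted p = 0.0221).

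Some values changed sign, among them SLC39A4, at -0.202 in the edgeR fit of all libraries, and others nearer 0. With log2(TPM + 1) and log2(TPM + 0.1), SLC30A9 was 0.083 and 0.085, SLC39A11 0.104 and 0.119, SLC39A4 0.073 and 0.09, and SLC39A7 0.018 and 0.018. With the GC correction, SLC39A1 was 0.003, SLC39A11 0.005 and SLC39A14 0.007, and with the length correction SLC39A11 was 0.004. Without LN-521 replicate 2, SLC39A1 was 0.022, SLC39A11 0.033, SLC39A13 0.071, SLC39A7 0.02, HERPUD1 0.003 and SCO2 0.006. SLC30A9 was 0.045 without LN-521 replicate 1, 0.016 without LN-521 replicate 3 and 0.027 without LN-521+LN-221 replicate 3. SLC39A11 was 0.008 without LN-521 replicate 3 and 0.012 without LN-521+LN-221 replicate 3, and SLC39A14 was 0.003 without LN-521+LN-221 replicate 1. Over the 6 fits without a library, the lowest values of these genes were -0.255 (SCO2), -0.14 (HERPUD1), -0.069 (SLC30A9), -0.107 (SLC39A1), -0.092 (SLC39A11), -0.202 (SLC39A13), -0.046 (SLC39A14), -0.098 (SLC39A7) and -0.353 (SLC39A4, without LN-521+LN-221 replicate 1). The cause was not tested. Results were counted once per setting for each of the 26 tested genes. With all libraries, direction and call were as in the text in 254, the sign changed in 12, and a call was gained in 6 and lost in 9. With a library left out, 142 were as in the text, the sign changed in 10, and a call was gained in 1 and lost in 3. The 6 transporters with at most 15 counts per library were all tested in edgeR without a filter, where none of them passed. Among them SLC30A8 had 1, 1 and 1 counts on LN-521 and 3, 7 and 2 on the mixed coating.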

Other observations

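Lists of genes for other signals to which metallothionein promoters are known to respond, oxidative stress, heat and glucocorticoids, were read in the same fit. Of 11 oxidative and heat stress genes tested, 1 passed the threshold, as lower on LN-521+LN-221, where 2.53% of all genes passed. NQO1, a quinone reductase, had 15.4, 14.7 and 15.5 CPM on LN-521 and 11.0, 11.3 and 11.8 CPM on LN-521+LN-221, without overlap, and a log2 change of -0.41 ± 0.09 (SE; edgeR adjusted p = 0.0191). NQO1 did not pass without LN-521 replicate 3 or without any of the 3 LN-521+LN-221 wells in turn (-0.402, -0.389, -0.409 and -0.443), nor with limma on log2(TPM + 1) (-0.329) or log2(TPM + 0.1) (-0.355). SRXN1, which repairs peroxiredoxins, had 11.0, 10.0 and 12.0 CPM on LN-521 and 8.43, 7.98 and 8.62 CPM on LN-521+LN-221, also without overlap, at -0.40 ± 0.11 (SE; edgeR adjusted p = 0.0614). It passed without LN-521 replicate 1 (-0.402) and without LN-521 replicate 2 (-0.465). It also passed with no filter (-0.412), with the replicate block (-0.401) and with the GC correction (-0.383). In all 4 genes of the list had an unadjusted p under 0.05, against 14.5% of all genes tested: NQO1, SRXN1, GCLC (-0.21 ± 0.07) and, in the other direction, HSPA1B (0.18 ± 0.08). HSPA1B had non-whole counts in 6 libraries, so its level depends on how reads were divided between genes. The wells did not overlap in 3 genes as lower (NQO1, SRXN1 and GCLC) and in 2 as higher (HSPA1B and TXNRD1, at 0.09 ± 0.05), against 9.68% and 10.2% of all genes. The list's median was -0.04, with 6 values below 0 and 5 above.

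Of 7 glucocorticoid response genes 6 were tested, and 0 passed by edgeR or DESeq2, with 2 at an unadjusted p under 0.05 (14.5% over all genes tested) and a median of -0.14. NR3C1, the glucocorticoid receptor, had 12.1, 11.6 and 13.8 CPM on LN-521 and 9.34, 11.0 and 8.66 CPM on LN-521+LN-221, at -0.37 ± 0.11 (SE; edgeR adjusted p = 0.105). It passed with no filter (edgeR adjusted p = 0.0391) and with the GC correction (edgeR adjusted p = 0.0243). SGK1, a kinase induced by glucocorticoids, had 28.1, 29.7 and 30.7 CPM on LN-521 and 25.4, 24.5 and 24.5 CPM on LN-521+LN-221, at -0.25 ± 0.07 (SE; edgeR adjusted p = 0.0948). It passed without LN-521 replicate 1 (-0.283) and with the GC correction (edgeR adjusted p = 0.0158). The wells of NR3C1 and SGK1, 2 of the 6 tested, did not overlap between the coatings, where 9.68% of all genes were lower without overlap. The part of these genes in the metallothionein result was not tested.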
